A study of Mus musculus with 7 samples.

Results

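The 8 genes described here are regulators of the mouse tail bud and presomitic mesoderm: Cdx1, Cdx2, Cdx4, T, Tbx6, Msgn1, Evx1 and Sp5. They were chosen by name, as the non-control probes whose array gene name is one of these symbols, and were read by 9 probes of the 55681 distinct probes on the array, or 8 of 27113 genes. RNA came from 7 populations of fluorescence-sorted cells of C57BL6J embryos that all carried the Osr1-GFP knock-in allele, in which green fluorescent protein (GFP) reports the transcription factor Osr1. Whole E8.5 embryos gave GFP-positive (GFP+) and GFP-negative (GFP-) cells. The caudal portion of E9.5 embryos gave gated cells (GFP+, Itga8-positive and Pdgfra-negative, the kidney precursor sort), the other GFP+ cells and GFP- cells. The E11.5 metanephric mesenchyme, the forming kidney, gave gated cells and other GFP+ cells. Every population had 1 single-colour array, hybridised after amplification of 10 ng of total RNA, so the spread between embryos and sorts is unknown and no comparison was tested. Stage changed together with the dissected tissue, so stage and tissue cannot be told apart, and the labels used here do not say how many embryos went into a sort.

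The tail bud and the primitive streak before it hold the progenitors from which the body axis lengthens, and Wnt and Fgf signals keep these progenitors going. The Cdx homeobox factors give posterior identity and sustain axis growth, and T (brachyury) is the T-box factor of the streak, the nascent mesoderm and the notochord. Tbx6 and Msgn1 turn progenitors into presomitic mesoderm, the tissue that segments into somites. Evx1 is a homeobox factor of the streak and tail bud, and Sp5 is a zinc finger factor known as a direct target of Wnt signalling. Osr1, the gene behind the sort, marks intermediate and lateral plate mesoderm, which lie beside the presomitic mesoderm.

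The stretch of 250 bases before the start of transcription was read for 7 of the 8 genes from the RefSeq promoter table (build GRCm38.p6). It was searched on both strands for CTTTGA and CTTTGT, the core letters of sites for the TCF/LEF factors that carry the Wnt signal to DNA. Matches were present in 3 of the 7 genes, Sp5 with 4, Msgn1 with 3 and T with 1, and in none of the windows of Cdx2, Cdx4, Evx1 and Tbx6. At least 1 such match was present in 27.6% of 32851 windows of the same length, and 3 or more in 0.776%. The 3 windows are shown because they set the genes with matches side by side, 5′ to 3′ on the strand of the gene, with the matches to CTTTGA or CTTTGT on either strand in capitals. They lie at chr2:70474673-70474922 on the plus strand for Sp5, chr12:11208949-11209198 on the minus strand for Msgn1 and chr17:8434173-8434422 on the plus strand for T.
Sp5: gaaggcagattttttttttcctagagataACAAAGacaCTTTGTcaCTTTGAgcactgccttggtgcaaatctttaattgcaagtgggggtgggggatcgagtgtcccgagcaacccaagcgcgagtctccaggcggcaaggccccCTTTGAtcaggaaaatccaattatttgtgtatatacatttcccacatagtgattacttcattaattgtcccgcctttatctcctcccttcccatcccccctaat
Msgn1: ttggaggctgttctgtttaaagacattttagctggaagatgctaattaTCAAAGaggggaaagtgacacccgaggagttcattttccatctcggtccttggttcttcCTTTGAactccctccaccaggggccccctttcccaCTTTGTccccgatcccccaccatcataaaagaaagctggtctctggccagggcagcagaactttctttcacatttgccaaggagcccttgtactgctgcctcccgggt
T: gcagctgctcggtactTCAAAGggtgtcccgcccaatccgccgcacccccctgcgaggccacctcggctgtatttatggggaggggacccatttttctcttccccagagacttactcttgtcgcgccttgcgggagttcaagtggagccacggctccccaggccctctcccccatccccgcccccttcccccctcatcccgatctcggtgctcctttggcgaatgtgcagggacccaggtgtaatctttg
In the Sp5 window 3 of the 4 matches lie close together near its distal end, whereas the matches of Msgn1 are spread out. The T-box motif AGGTGT matched in T, Cdx4 and Evx1 and was present in 11.8% of all windows, and the Cdx site TTTATG matched in T and Msgn1 and was present in 10.8% of them. The AGGTGT and TTTATG matches overlap no capital letters. These matches are descriptions of the letters in the windows.

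Each gene was read by 60-base probes that the array files place in build mm9. The probes lie at chr5:148112547-148112606 (minus strand) for Cdx2, chrX:100525392-100525451 (plus) for Cdx4, chr17:8635302-8635361 (plus) for T, chr12:11215431-11215490 (minus) for Msgn1, chr6:52268298-52268357 (plus) for Evx1 and chr2:70315688-70315747 (plus) for Sp5. A level is the log2 signal of a probe relative to the 75th percentile of its array, so 0 is the 75th percentile. On the signal scale that percentile ran from 230.7 to 300.0 over the arrays, and 56.2% to 84.1% of spots were well above background. The lowest share was on the E8.5 GFP- array and the highest on the E9.5 other GFP+ array. The spot error, from 399 probes spotted 10 times, was 0.14 (SD of a log2 difference), and it does not include the spread between sorts. As a check of the sorts, Osr1 was at 0.85 in E8.5 GFP+ cells and was not well above background in GFP- cells of E8.5 or E9.5. Itga8 was at 2.15 in gated and 0.20 in other GFP+ cells of E9.5, and also well above background in both GFP- populations. Pdgfra was lower in gated than in other GFP+ cells of E9.5 (−0.52 against 3.44), yet still well above background there. In E11.5 gated cells Pdgfra (−5.92) was not well above background. All 8 kidney progenitor genes examined were well above background on both gated arrays. Of these, 7 were also well above background in E8.5 GFP+ cells and in the other GFP+ cells of E9.5 and E11.5. The number was 6 in E9.5 GFP- and 5 in E8.5 GFP- cells, so their detection alone separates the populations little. The gated and GFP- arrays of E9.5 were on one slide and the other 5 arrays on another, so 5 of the 10 comparisons below lay within a slide. In the other 5, slide and population cannot be told apart.

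All 8 regulators were well above background in both E8.5 populations and in E9.5 GFP- cells. The number was 6 in E9.5 gated cells, 7 in E9.5 other GFP+ cells, 3 in E11.5 gated cells and 5 in E11.5 other GFP+ cells. These counts take Tbx6 by the upstream probe. The downstream probe was not well above background in E9.5 gated cells or in either E11.5 population, so Tbx6 would drop out of those 3 counts. Over all genes 60.3% to 85.4% were well above background on an array, and the share was 74.5% on the E11.5 gated array.

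Cdx4 had the widest range among the 8 genes over arrays on which it was well above background, 8.18 log2 units. Its level was 6.15 in E8.5 GFP+ and 4.96 in E8.5 GFP- cells, then −2.03, 2.12 and 3.73 in E9.5 gated, other GFP+ and GFP- cells. In E11.5 gated and other GFP+ cells it was −6.52 and −5.19, neither well above background. On the signal scale, Cdx4 read 17998 in E8.5 GFP+ cells and 64.3 in E9.5 gated cells. Cdx4 was therefore high throughout E8.5, and at E9.5 high in the cells without GFP and low in the kidney gate.
Cdx2, which also acts in trophoblast and intestine, was at 1.63 and 1.13 in E8.5 GFP+ and GFP- cells. At E9.5 it was at −5.52 in gated cells, not well above background, −2.84 in other GFP+ cells and −0.04 in GFP- cells, and at E11.5 it lacked a reading well above background in either population (−6.69 gated, −7.07 other GFP+). Its steps across E9.5 are the same in order as those of Cdx4.
Cdx1 was at 2.32 and 1.30 in E8.5 GFP+ and GFP- cells, and at −1.73, −1.15 and −1.52 in E9.5 gated, other GFP+ and GFP- cells. At E11.5 its gated reading (−5.19) was not well above background, and it was at −2.56 in other GFP+ cells. Unlike Cdx2 and Cdx4, Cdx1 differed little among the 3 populations of E9.5, by at most 0.58.

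T was well above background on 3 arrays, at −1.30 in E8.5 GFP+, −0.92 in E8.5 GFP- and −0.98 in E9.5 GFP- cells. The readings of −6.21 and −4.53 in E9.5 gated and other GFP+ cells and of −5.52 and −6.81 in E11.5 gated and other GFP+ cells were not well above background. The 3 measured levels lay within 0.38 of each other, under 3 times the spot error of a difference (0.43). T was thus measured in both GFP- populations and, of the GFP+ ones, at E8.5.
Msgn1 was well above background on all 7 arrays. It was at 0.49 and −0.58 in E8.5 GFP+ and GFP- cells, −2.17, −1.56 and −1.15 in E9.5 gated, other GFP+ and GFP- cells, and −3.16 and −3.36 in E11.5 gated and other GFP+ cells. Its order at E9.5 was that of Cdx2 and Cdx4, with smaller steps. Its step from other GFP+ to GFP- cells (0.41) lay within 3 times the spot error, so the order of those populations is not settled. Its 2 levels at E11.5 differed by 0.19, within 3 times the spot error as well.

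Tbx6 had 2 probes, and they disagreed. The probe that represents the gene, the one with the higher mean, read −0.49 and −0.82 in E8.5 GFP+ and GFP- cells, −1.77, −1.86 and −0.72 in E9.5 gated, other GFP+ and GFP- cells, and −1.95 and −1.38 in E11.5 gated and other GFP+ cells. The other probe read 0.14 and 0.36 at E8.5, then −4.71 (not well above background), −2.44 and −1.13 at E9.5, and −6.49 and −5.13 at E11.5, neither well above background, in the same order of populations. The first probe was well above background on all 7 arrays with a range of 1.47, and the second on 4. Those 4 arrays were also the 4 on which Cdx2 was well above background. Both probes lie on the plus strand of chromosome 7 in build mm9 with 112 bases between them, the representing probe at chr7:133928828-133928887 and the other downstream at chr7:133929000-133929059. Their last 30 bases are shown because the probes differ in base composition (55% G and C upstream, 35% downstream), with the polyadenylation hexamer in capitals.
Tbx6 upstream probe: agctcaggcaaggcagctctgagtccagct
Tbx6 downstream probe: agtatttttgttAATAAAactccaaagaca
The hexamer was also present in the probes of Evx1, Sp5 and T. Results for Tbx6 are given for the upstream probe, with those of the downstream probe beside them.

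**Figure D1:**
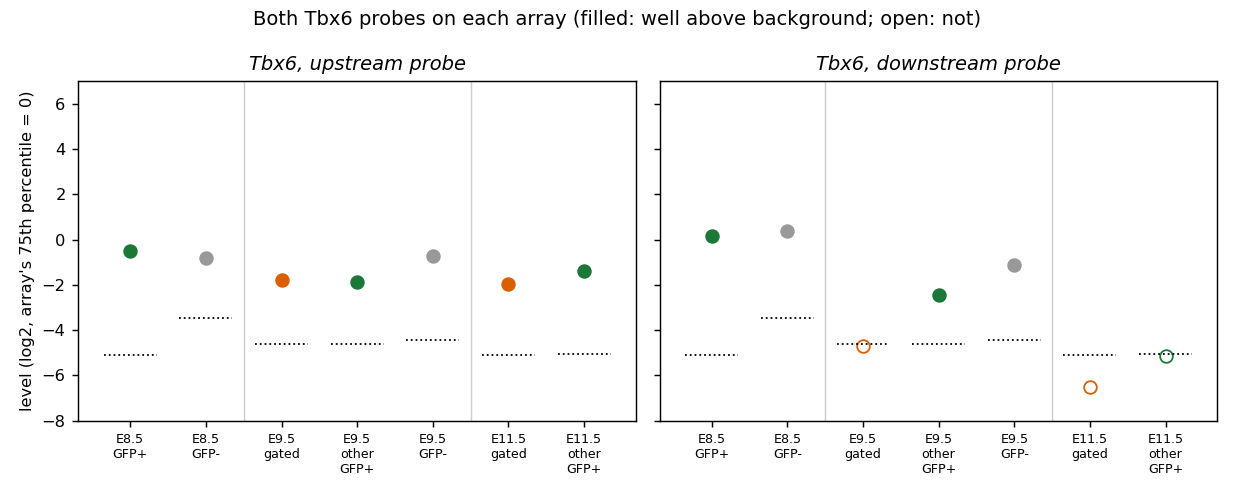
Level of Tbx6 on each of the 7 arrays by its upstream probe (left) and its downstream probe (right), in log2 units with the 75th percentile of the array at 0, 1 point per array. Filled points were well above background, open points were not, and dotted lines mark the lowest level well above background. The upstream probe spans 1.47 log2 units, whereas the downstream probe is open in E9.5 gated cells and in both E11.5 populations. Heights are not comparable between the probes.

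Evx1 was at 3.73 and 2.42 in E8.5 GFP+ and GFP- cells. At E9.5 it was at −2.48 in gated cells against 1.35 in other GFP+ cells and 1.26 in GFP- cells, and at E11.5 it lacked a reading well above background in gated cells (−5.26) and was at −2.18 in other GFP+ cells. Evx1 was thus low in the kidney gate at both stages, and at E9.5 its levels in GFP- and other GFP+ cells differed by 0.09, within the spot error.
Sp5 was well above background on all 7 arrays. Its level was 1.44 and 0.70 in E8.5 GFP+ and GFP- cells, −1.48, −1.72 and 0.85 in E9.5 gated, other GFP+ and GFP- cells, and −2.88 and −4.38 in E11.5 gated and other GFP+ cells. Sp5 was low in both GFP+ populations of E9.5, unlike Evx1.

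In the order of levels within a gene, E8.5 GFP+ cells came first for Cdx1, Cdx2, Cdx4, Tbx6, Msgn1, Evx1 and Sp5, and E8.5 GFP- cells for T. By its downstream probe Tbx6 was also highest in E8.5 GFP- cells. Among levels well above background, neighbours in an order that lay within 0.43 were the E9.5 populations of Cdx1, the 3 measured levels of T, the 3 highest of Tbx6 and its 4 lowest, E9.5 other GFP+ and GFP- cells for Msgn1 (0.41) and Evx1 (0.09), E11.5 gated and other GFP+ cells for Msgn1 (0.19), E9.5 gated and E11.5 other GFP+ cells for Evx1 (0.30), and E9.5 GFP- and E8.5 GFP- cells (0.15) and the GFP+ populations of E9.5 (0.24) for Sp5.

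**Figure D2:**
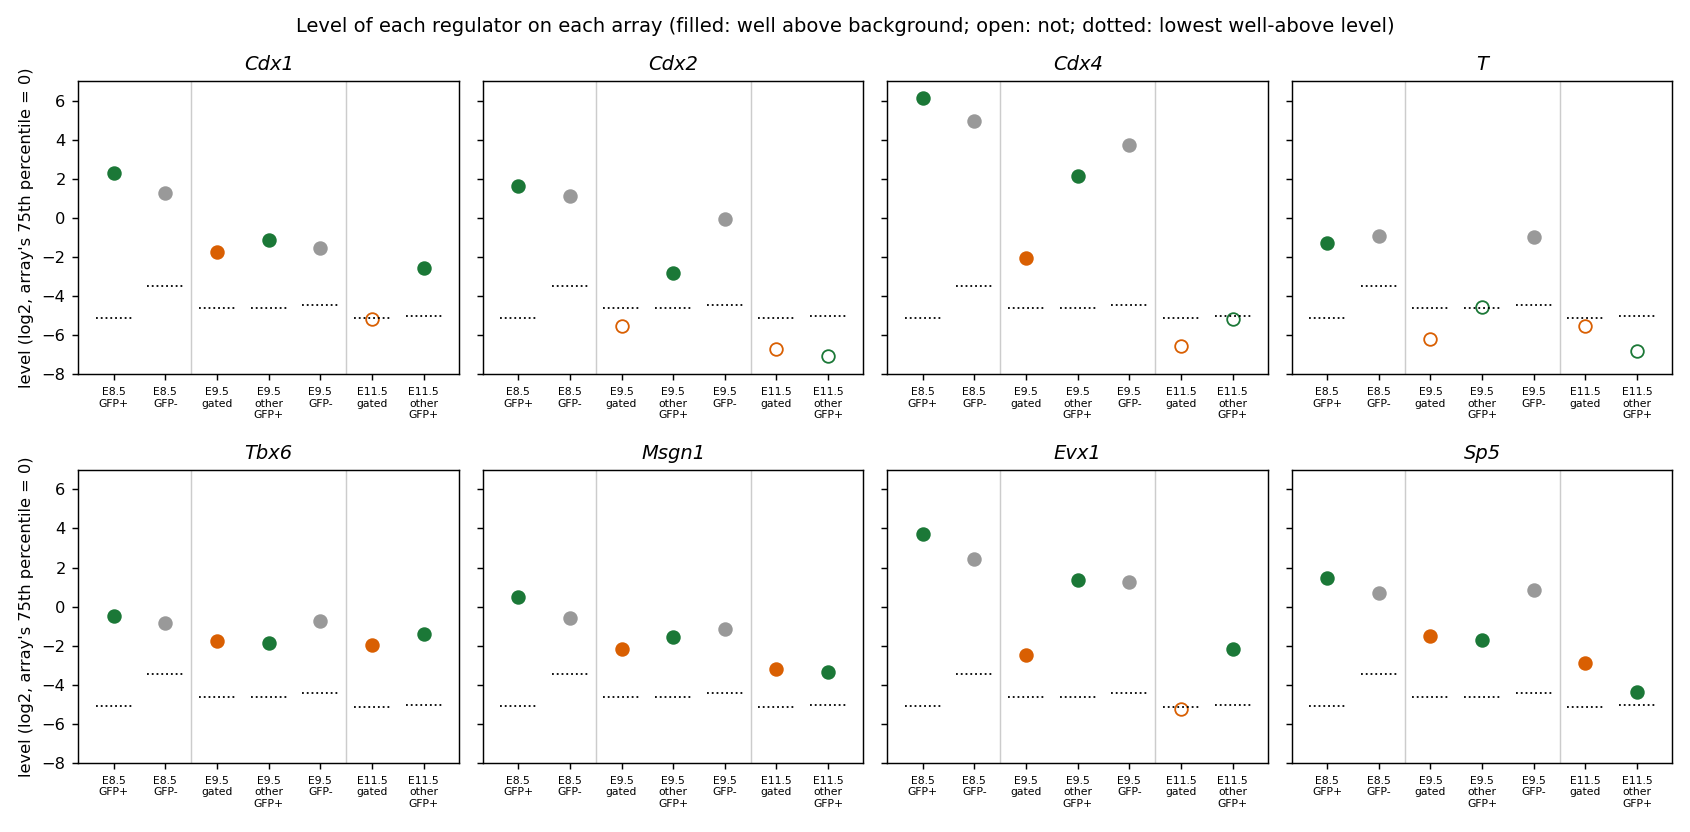
Level of each of the 8 regulators on the 7 arrays, in log2 units with the 75th percentile of the array at 0, 1 point per array. Orange is the kidney gate, green the other GFP+ populations and grey GFP- cells. Filled points were well above background, open points were not, and dotted lines mark the lowest level well above background on the array. Cdx4 spans from 6.15 in E8.5 GFP+ cells to −2.03 in E9.5 gated cells, and T is filled on 3 arrays.

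At E8.5, 4 of the 8 regulators were at least 2-fold higher in GFP+ than in GFP- cells and none was 2-fold lower. Evx1 was 2.47-fold higher, Cdx4 2.28-fold, Msgn1 2.09-fold and Cdx1 2.03-fold. Sp5 (0.74), Cdx2 (0.51) and Tbx6 (0.33, with −0.22 by the downstream probe) differed by less than 2-fold in log2 units, as did T at −0.38. Of 18057 genes measured in this comparison, 7.83% were 2-fold higher and 6.77% lower, or 9.96% and 5.67% with no scaling between the arrays. The median of the 8 was 0.88 against 0.05 over all genes. Cdx1 and Msgn1 stood just past 2-fold, and both were below it under quantile normalisation (0.92 and 0.97), under normexp background correction (0.95 and 0.86) and with the percentile taken over probes detected on all arrays (0.94 and 0.98). The count was then 2, Evx1 and Cdx4.
The GFP- cells of E8.5 were also high in markers of blood. All 9 red blood cell genes were at least 2-fold lower in GFP+ cells, with a summed relative signal of 7.36 against 2522 in GFP- cells, and in GFP+ cells Gata1 and Klf1 were not well above background. Of 8 measured neural tube genes 2 were lower, Sox2 by 13.6-fold and Sox3 by 12.1-fold, and Irx3 was 5.5-fold higher (median of the list −0.10). The neural sum was 11.4 in GFP+ and 22.9 in GFP- cells. Of the genital and cloacal genes 3 of 4 were higher in GFP+ cells and 1 lower, led by Isl1 (13.3-fold higher), with sums of 4.88 in GFP+ and 1.68 in GFP- cells. Of 5 measured notochord and node genes 3 were lower and none higher, led by Shh (5.71-fold), with sums of 3.46 in GFP+ and 9.13 in GFP- cells. Of 7 somite genes 3 were lower and none higher, led by Pax1 (at least 46.8-fold), with sums of 26.8 in GFP+ and 34.5 in GFP- cells. Gut endoderm gave 1 higher and 3 lower of 11, and the allantois list 2 higher and 0 lower of 4. The part of these cells in the differences of the regulators was not tested.

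At E9.5 the kidney gate was low in most of the 8 regulators, and lowest against GFP- cells of the same caudal portion. Against GFP- cells, 7 of 8 were at least 2-fold lower in gated cells and none was higher, where 6.41% and 5.67% of 21457 genes were. Without scaling these shares were 8.77% lower and 3.88% higher. Cdx4 was 54.1-fold lower, Evx1 13.4-fold and Sp5 5.04-fold. Cdx2 was at least 23.7-fold lower and T at least 12.4-fold, where "at least" marks a bound: the dimmer array gave no reading well above background, so its value was replaced by the lowest level that was, unless its own was higher. Tbx6 was 2.08-fold lower (at least 11.1-fold by the downstream probe) and Msgn1 2.03-fold. Under normexp background correction the count was 5, with Tbx6 at −0.70, Msgn1 at −0.53 and the bound of T at −1.19. Cdx1, at −0.21, stood apart from the other 7. The median of the 8, with bounds taken at their value, was −2.98, against 0.01 over all genes.
Against the other GFP+ cells, gated cells were at least 2-fold lower in 3 of 7 measured regulators and 2-fold higher in none. Of 23542 genes 9.39% were lower and 5.15% higher, or 7.69% and 8.69% under quantile normalisation. The 3 were Cdx4, lower by 17.8-fold, Evx1 by 14.2-fold and Cdx2 by at least 3.42-fold. Under normexp the bound of Cdx2 was −0.42 and the count 2. Msgn1 (−0.61), Cdx1 (−0.58), Tbx6 (0.09) and Sp5 (0.24) were within 2-fold, T was not measured, and the downstream Tbx6 probe was at least 4.5-fold lower. The median was −0.61, against −0.15 over all genes. These arrays were on different slides.
The other GFP+ cells in turn were at least 2-fold lower than GFP- cells in 5 of 8 regulators and higher in none. Of 23705 genes 5.18% were lower and 8.58% higher, or 9.05% and 6.6% under quantile normalisation. T was at least 11.8-fold lower, Cdx2 6.93-fold, Sp5 5.97-fold, Cdx4 3.05-fold and Tbx6 2.2-fold (2.47-fold by the downstream probe). Tbx6 was at −0.75 under normexp, and the count was then 4. Evx1 (0.09), Cdx1 (0.37) and Msgn1 (−0.41) were within 2-fold. The median was −1.37, against 0.14 over all genes. Both comparisons with GFP- cells share that one array, and these 2 arrays were on different slides.
Within E9.5, then, Cdx4 and Cdx2 were stepped from gated through other GFP+ to GFP- cells. Sp5 was low in both GFP+ populations, Evx1 was low in gated cells alone of the 3 populations, and Cdx1 was near level.

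Markers of other cell types moved with these differences. In gated against GFP- cells of E9.5, 9 of 12 neural tube genes were at least 2-fold lower, led by Sox2 (at least 153-fold) and Sox3 (47.1-fold), and none was higher. All 9 red blood cell genes were lower. The neural sum of relative signal was 5.30 in gated, 8.496 in other GFP+ and 76.0 in GFP- cells, and the red blood cell sum 2.13 in gated and 1361 in GFP- cells. In gated cells Sox2, Neurog2 and Dbx1 of the neural list were not well above background, nor were Hba-x, Hbb-y, Gata1, Ahsp and Klf1 of the red blood cell list. Of the notochord and node list, with sums of 1.13 in gated, 3.48 in other GFP+ and 10.6 in GFP- cells, Foxa2 and Shh were not well above background in gated cells. For the gut endoderm list the sums were 8.91, 22.6 and 23.2, and gated cells were 2-fold lower than other GFP+ cells in 8 of 12 measured genes and higher in 1 (Sox17, 4.36-fold). In the same comparison 3 of 4 genes of the genital and cloacal field were lower, Hoxd13 by 16.8-fold, Isl1 by 4.19-fold and Hoxa13 by 3.7-fold, with sums of 2.23 in gated and 13.1 in other GFP+ cells. So were 4 of 6 allantois and extraembryonic genes, led by Tbx4 (12.3-fold). Of the somite list, 4 of 8 genes were lower and none higher in gated than in GFP- cells, led by Pax1 (at least 262-fold). The somite sum was not lower in gated cells, at 63.7 against 56.8 in GFP- cells. Meox1 alone made up most of it, at 53.9 in gated and 32.6 in GFP- cells, so the sum says little about the other somite genes. Of the kidney progenitor list 5 of 8 were higher and none lower, led by Wt1 (48.3-fold). The part of these cells in the values of the regulators was not tested. Fewer cells of a type and less RNA per cell cannot be told apart in bulk RNA.

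At E11.5, 3 of the 8 regulators (Tbx6 by its upstream probe, Msgn1 and Sp5) were well above background in gated cells. Against the other GFP+ cells, Sp5 was 2.82-fold higher, Cdx1 at least 5.89-fold lower and Evx1 at least 7.67-fold lower. Msgn1 (0.19) and Tbx6 (−0.57) were within 2-fold, and the downstream Tbx6 probe was measured in neither population. Cdx2, Cdx4 and T were measured in neither population. That was 1 higher and 2 lower of 5 measured, where 10.5% and 9.45% of 21621 genes were, or 6.86% and 12.6% with no scaling. The median of the 5 was −0.57, against 0.15 over all genes. All 3 differences fell within 2-fold under normexp background correction, Sp5 to 0.55, Cdx1 to −0.54 and Evx1 to −0.66, since that correction adds an offset of 50 to signals of 64.1 or less for these genes. On the signal scale Sp5 read 34.0 in gated and 13.95 in other GFP+ cells. Among markers of other cells in the same comparison, 3 of 4 genital and cloacal genes were lower in gated cells, among them Isl1 by 24.3-fold, with sums of 1.07 in gated and 3.78 in other GFP+ cells. Of the allantois list 1 of 3 measured genes was lower and 0 higher, Vcam1 by at least 162-fold. The somite list was split, 2 higher and 2 lower of 6, with Meox2 22.9-fold higher and Tcf15 at least 3.13-fold lower. Of the gut endoderm list 3 of 7 were higher and 0 lower, namely Cldn6 (9.91-fold), Epcam (2.56-fold) and Krt19 (2.52-fold). Foxa1, Foxa2, Sox17, Hnf4a and Cdh1 of that list were not well above background in either population, so the count does not rest on them. Of the kidney progenitor genes 5 of 8 were higher and none lower, led by Six2 (205-fold). The part of these cells was not tested.

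**Figure D3:**
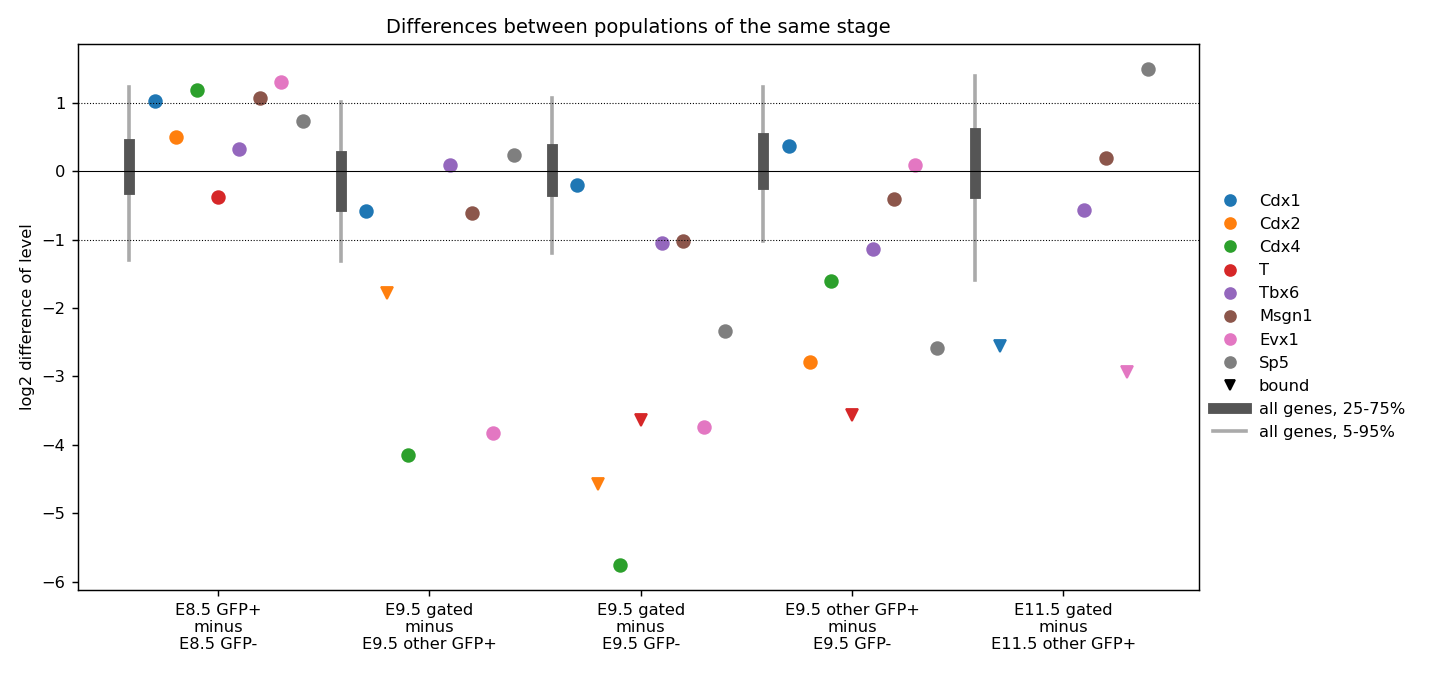
Log2 difference of level between populations of the same stage, first minus second, for each regulator that was measured (1 array per population). Circles are differences, triangles are bounds, and the bars at the left of each group show the middle 50% and 90% of all measured genes. Dotted lines mark 2-fold. At E8.5, 7 of 8 regulators lie above 0, and in E9.5 gated minus GFP- cells all 8 lie below it.

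Between stages, all 8 regulators were at least 2-fold lower in both E9.5 GFP+ populations than in E8.5 GFP+ cells. Under normexp the count was 7 in each, without Tbx6 (−0.91 in gated and −0.96 in other GFP+ cells). In E9.5 gated cells Cdx4 was 290-fold lower, Evx1 74.3-fold, Cdx1 16.5-fold, Sp5 7.58-fold, Msgn1 6.33-fold and Tbx6 2.44-fold (at least 27-fold by the downstream probe). Cdx2 was at least 75.9-fold lower and T at least 9.91-fold. The median was −3.68, against −0.00 over all 21330 genes measured, of which 6.85% were lower and 12.7% higher (8.89% and 8.63% under quantile normalisation). Other lists moved too in gated cells: 6 of 10 measured gut endoderm genes were lower and none higher, led by Foxa2 (at least 44.5-fold), with sums of 8.91 in E9.5 gated and 48.4 in E8.5 GFP+ cells. So were 3 of 4 allantois genes, led by Tbx4 (29.5-fold), whereas 5 of 8 kidney progenitor genes were higher, led by Wt1 (70.4-fold). Their part was not tested.
In E9.5 other GFP+ cells, compared with the same E8.5 array, the order was another. Cdx2 was 22.2-fold lower, Cdx4 16.3-fold, Cdx1 11.1-fold, Sp5 8.98-fold, Evx1 5.22-fold, Msgn1 4.14-fold and Tbx6 2.59-fold (6-fold by the downstream probe), and T was at least 9.39-fold lower. The median was −3.20, against 0.16 over 23412 genes, with 3.4% lower and 15.4% higher (6.67% and 5.94% under quantile normalisation). Both arrays of this comparison were on one slide, whereas those of the gated cells were not.

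In GFP- cells the 2 stages were closer. Cdx1 was 7.04-fold lower at E9.5 than at E8.5, Cdx4 2.34-fold, and Cdx2 and Evx1 2.25-fold each, 4 of 8 with none higher. T (−0.06), Tbx6 (0.10), Sp5 (0.15) and Msgn1 (−0.58) were within 2-fold, although the downstream Tbx6 probe was 2.82-fold lower. Of 18899 genes 6.84% were lower and 9.72% higher, or 8.44% and 7.71% under quantile normalisation and 3.66% and 18.6% with no scaling, and the medians were −0.87 for the regulators and 0.04 for all genes. With no scaling 1 of the 4, Cdx1, stayed past 2-fold. Neural tube genes moved the other way, with 10 of 12 at least 2-fold higher at E9.5, among them Irx3 (7.99-fold) and Sox2 (6.58-fold). The neural sum was 76.0 at E9.5 and 22.9 at E8.5. Of the red blood cell genes 7 of 9 were lower and none higher (median −1.58), with sums of 1361 at E9.5 and 2522 at E8.5, and of the allantois genes 3 of 4 were lower, led by Tbx4 (45-fold). The part of these lists in the values was not tested.

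Between E9.5 and E11.5 most of the measured regulators were lower, and Tbx6 by its upstream probe was within 2-fold. In E11.5 against E9.5 gated cells, Cdx1 was at least 10.5-fold lower, Cdx4 at least 8.51-fold, Evx1 at least 6.21-fold and Sp5 2.64-fold, 4 of 6 measured with none higher. Msgn1, at 1.99-fold lower, missed the threshold, and Tbx6 was at −0.18. The downstream Tbx6 probe was measured in neither of these gated populations. Of 21475 genes 11.9% were lower and 6.08% higher, or 9.3% and 8.11% under quantile normalisation. The median was −2.02, against −0.03 over all genes. These arrays were on different slides, as were those of the GFP- cells across stages. Under normexp background correction none of the 4 passed 2-fold, with Cdx1 nearest at −0.98.
In E11.5 against E9.5 other GFP+ cells 6 of 7 were lower and none higher. Evx1 differed by −3.53 on the log2 scale. Cdx4 was at least 143-fold lower, Sp5 6.3-fold, Cdx2 at least 4.61-fold, Msgn1 3.48-fold and Cdx1 2.66-fold, whereas Tbx6 was at 0.48 (at least 6.05-fold lower by the downstream probe). Here 22.2% of 23628 genes were lower and 6.38% higher, so 2-fold lower values were common, and the all-gene median was −0.36 against −2.20 for the regulators. Under quantile normalisation the shares were 10.1% and 11.7% and the all-gene median −0.04. Gut endoderm genes moved in the same direction, 12 of 12 at least 2-fold lower, with sums of 1.01 at E11.5 and 22.6 at E9.5. The part of those cells was not tested.

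**Figure D4:**
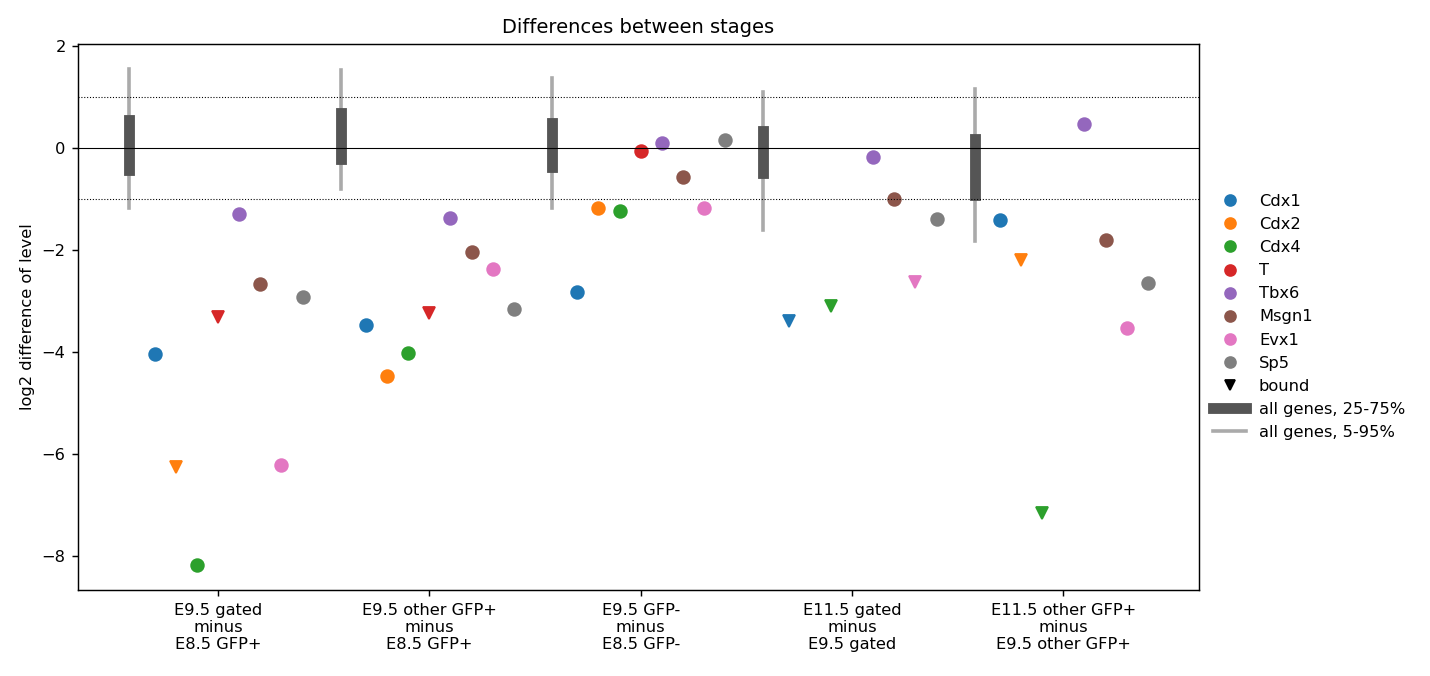
Log2 difference of level between stages, later minus earlier, for each regulator that was measured (1 array per population). Circles are differences, triangles are bounds, and the bars at the left of each group show the middle 50% and 90% of all measured genes. Dotted lines mark 2-fold. All 8 regulators lie below the lower dotted line in both E9.5 GFP+ populations, and 4 of 8 do in GFP- cells.

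The genes around these regulators were followed with 2 lists. Of 16 measured posterior signals and factors, the Wnt and Fgf ligands of the tail bud and their partners, 4 passed 2-fold upward and 4 downward in E8.5 GFP+ against GFP- cells (median 0.21). Lef1, a TCF/LEF factor, was 10.5-fold higher, and Sp8, a relative of Sp5, 4.49-fold lower. In E9.5 gated against GFP- cells none was higher and 6 of 16 were lower (median −0.61), among them Sp8 (11.9-fold), Wnt3a (at least 8.9-fold) and Cyp26a1 (3.68-fold), the enzyme that clears retinoic acid from the tail bud. In other GFP+ against GFP- cells none was higher and 4 of 17 were lower (median 0.02), with Cyp26a1 at 10.68-fold. Gated against other GFP+ cells of E9.5 gave 1 higher, Cyp26a1 by 2.9-fold, and 4 lower of 15, with the Wnt feedback gene Axin2 at 3.07-fold. At E11.5 the gate gave 1 higher, Lef1 by 2.38-fold, and 0 lower of 12. Across stages 1 was higher and 7 lower of 15 in E9.5 gated against E8.5 GFP+ cells, and 0 and 7 of 15 in E11.5 against E9.5 other GFP+ cells. The counts were 3 higher and 4 lower of 17 in E9.5 other GFP+ against E8.5 GFP+ cells (median −0.08), 2 and 2 of 15 in GFP- cells (0.22), and 0 and 3 of 13 in E11.5 against E9.5 gated cells (0.04).
The segmentation clock and anterior presomitic genes, which are downstream in the presomitic mesoderm, formed the other list. At E9.5, against GFP- cells, 8 of 12 were at least 2-fold lower in gated cells with none higher (median −1.90), and 8 of 12 in other GFP+ cells with 1 higher (median −1.70). The Notch ligand Dll3 was at least 110-fold lower in gated cells, Lfng, which modifies Notch, 6.71-fold, and Hes7, a clock oscillator, 4.71-fold. Gated against other GFP+ cells of E9.5 gave 2 higher, Lfng by 2.6-fold and Nrarp by 2.05-fold, and 4 lower of 12, among them Dll3 by at least 27.8-fold (median −0.32). At E8.5, 3 of 12 were higher in GFP+ cells and none lower (median 0.17), and Dll3 was at 1.55 there against 1.42 in GFP- cells. At E11.5 the gate held 5 of 11 higher and 2 lower than other GFP+ cells (median 0.67), with Lfng 7.65-fold higher and Dkk1 at least 24.4-fold lower. Between E8.5 and E9.5, 10 of 12 were lower in gated cells with none higher (median −1.41), 7 of 12 in other GFP+ cells with none higher (−1.54), and in GFP- cells 3 were higher and 1 lower (0.42).

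Across the 7 arrays the 8 regulators varied together, as a description of these arrays. Readings not well above background were raised to the lowest level that was, unless their own was higher. Pearson correlations over the 28 pairs ran from 0.750 (Cdx1 and T) to 0.970 (Cdx4 and Msgn1), and all pairs share the lower levels of E11.5 than of E8.5. Among 4991 other genes that varied by at least 2 log2 units and were well above background on at least 2 arrays, the most alike to T was Wnt3a, the Wnt ligand of the tail bud, with r of 0.999 over 7 arrays. The 4 arrays on which neither gene was well above background weigh most in it. There the raising gave both genes the same value, or nearly so in E9.5 other GFP+ cells (−4.53 for T and −4.62 for Wnt3a). That part of the agreement was set by the processing. Wnt3a was at −1.63 and −1.22 in E8.5 GFP+ and GFP- cells and at −1.46 in E9.5 GFP- cells, and was not well above background elsewhere. The 3 arrays with T were thus the 3 with Wnt3a. The next were Slc27a2 (0.988) and Slc2a1, a glucose transporter (0.981). Of the 4991 genes, 45 had r above 0.9 with T. Over the 8 regulators that number ran from 11 (Tbx6) to 139 (Msgn1), so a high r does not single out a gene.
Foxa2, a factor of notochord, floor plate and gut, and Dll3 did not share this pattern. Foxa2 was at 0.91 and Dll3 at 0.19 in E9.5 other GFP+ cells, in which T and Wnt3a were not well above background.

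**Figure D5:**
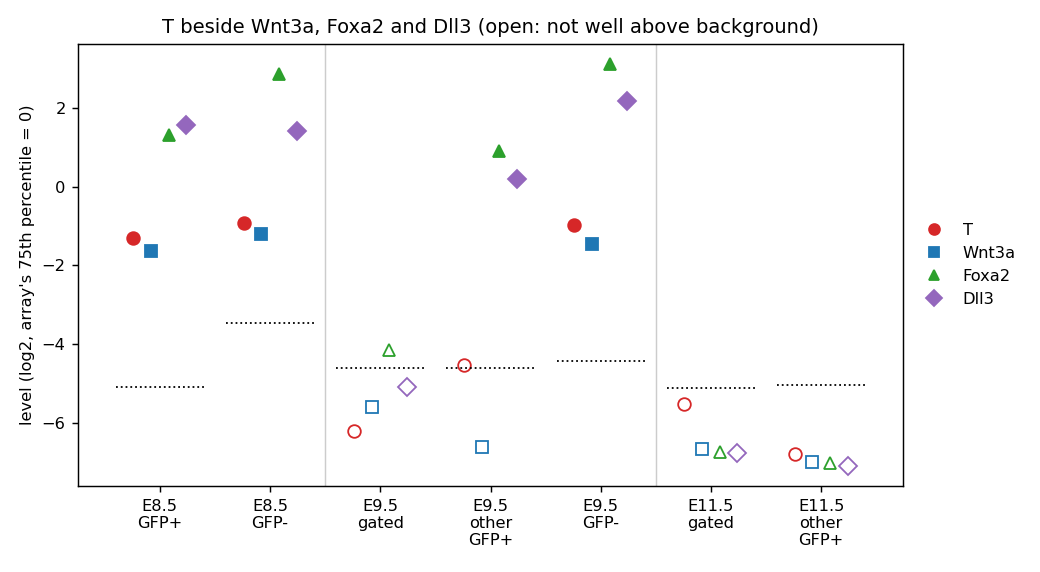
Level of T, Wnt3a, Foxa2 and Dll3 on the 7 arrays, in log2 units with the 75th percentile of the array at 0, 1 point per gene and array. Open points were not well above background, and dotted lines mark the lowest level well above it. T and Wnt3a are filled on the same 3 arrays, and in E9.5 other GFP+ cells Foxa2 (0.91) and Dll3 (0.19) are filled while T and Wnt3a are open. Heights are not comparable between genes.

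For the Cdx genes, those named among the most alike were Plac1 (0.985), Phlda2 (0.969) and Slc13a4 (0.964) for Cdx1, Cgn (0.981) and Ngef (0.980) for Cdx2, and Slc2a3 (0.981), Nsun6 (0.979) and the transcript named 5730457N03Rik on the array (0.978) for Cdx4. Plac1 and Phlda2 are known as placental genes, and Cgn as a junction gene of epithelia. For Msgn1 they were LOC100048247 (0.984), 5730457N03Rik (0.983) and Aldoc (0.974). Tbx6 was followed by Atp1b2 (0.962), Arl4a (0.933) and Csn3 (0.927), Evx1 by Ppp2r5a (0.975), P3h2 (0.975) and Me1 (0.969), and Sp5 by D16Ertd6e (0.977), Nckap1l (0.972) and Snrpn (0.970).
The name 5730457N03Rik is a RefSeq synonym of Evx1os, a non-coding transcript next to Evx1. The name rests on that synonym, since the accession of the probe did not match the RefSeq table. Its probe lies on chromosome 6 at 52258383 to 52258442 of build mm9 on the minus strand, 9855 bases from the Evx1 probe on the plus strand at 52268298 to 52268357. Evx1os was at 1.59 and −0.02 in E8.5 GFP+ and GFP- cells, −2.24, −1.41 and 0.10 in E9.5 gated, other GFP+ and GFP- cells, and not well above background at E11.5. Its correlation with Evx1 was 0.905, below those with Msgn1 (0.983), Cdx4 (0.978), Sp5 (0.969) and Cdx2 (0.938). The genes parted in E9.5 other GFP+ cells, where Evx1os was 2.84-fold lower than in GFP- cells and Evx1 differed by 0.09. They also parted in GFP- cells between stages, with E9.5 minus E8.5 at 0.11 for Evx1os and −1.17 for Evx1. Both of these comparisons lay across slides. In E11.5 other GFP+ cells Evx1 was well above background and Evx1os was not. How the labelled product keeps the strand is not given in the sources used here.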

How the data were processed

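Each of 7 sorted populations was measured on 1 single-colour Agilent array (62976 spots, build mm9). Agilent Feature Extraction 10.7.3.1 is the software in the submitters' processing notes. The intensity the authors deposited is its processed signal, which is background-subtracted and detrended, per the file headers, and not scaled between arrays. The deposited value table held the same intensity (all 62976 values per array equal within a relative tolerance of 1e-06).

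Here the log2 processed signal was set against the 75th percentile of non-control spots. Spots flagged as outliers (127 to 160 per array) were left out, spots of a probe were averaged, and a gene was taken by its probe of highest mean. Names came from RefSeq by accession for 26419 probes and from the array for 8939, and 20323 had none. A gene was measured where at least 1 of 2 arrays was well above background and the bound, the higher of its own level and the lowest well-above level of the array, kept the direction. Differences counted from 2-fold. Medians take bounds at their value. Surrogate values for dim spots stood in 1661 to 12590 spots per array, and no spot was saturated. The number of arrays, 1 per population, limits the precision.

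The 8 genes and the 11 gene lists were chosen with earlier results of these data known. All 8 are named in every comparison. List genes are named from the 4 largest differences past 2-fold, except genes named for not being well above background, Dll3 at E8.5, and Foxa2 and Dll3 beside T, which were picked after their values were seen, as was Evx1os for its values beyond the correlations. Meox1 was likewise named after its values were seen, for its part in the somite sum. For each regulator the 3 most correlated genes are named, except that 1 gene the rule picks is not reported here. Alternatives were quantile normalisation, normexp with an offset of 50 (limma 3.58.1, R 4.3.3), no scaling, a percentile over probes detected on all arrays, no filter, and the mean of probes. The other Tbx6 probe was added as an alternative after the data were seen. The steps were tested on simulated data, with set shifts larger than 2-fold and noise of the size of the spot error. That test holds no spread between sorts and no slide effect, so it cannot show whether a 2-fold difference would recur. Python 3.11.15, pandas 2.3.3 and numpy 2.4.6 were used.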

Additional observations from a re-analysis of the deposited data

Results flagged for a closer look

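The contrast of GFP+ with GFP- cells had opposite signs at E8.5 and E9.5 for several regulators, by 1 array per population. These differences between stages were not tested, and at E9.5 GFP- and gated cells were on another slide than the E8.5 arrays.

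For the other GFP+ cells of E9.5, the log2 difference from GFP- cells is set here beside that of E8.5 GFP+ cells. It was −2.79 at E9.5 against 0.51 at E8.5 for Cdx2, −1.61 against 1.19 for Cdx4 and −2.58 against 0.74 for Sp5. The 0.51 of Cdx2 is near the limit of 0.43 used below, and was 0.42 with the percentile over probes detected on all arrays. Tbx6 gave −1.14 against 0.33, and its downstream probe −1.31 against −0.22. Both E8.5 values of Tbx6 lie within 3 times the spot error (0.43), so they show no direction at E8.5. Msgn1 gave −0.41 against 1.07, and its value of E9.5 lies within 0.43 too.

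For the gated cells of E9.5 set against the same GFP- array, the value was −4.57 (a bound) at E9.5 against 0.51 at E8.5 for Cdx2 and −5.76 against 1.19 for Cdx4. The same limit holds for the 0.51 of Cdx2, which is near 0.43. Evx1 gave −3.74 against 1.31, Sp5 −2.33 against 0.74 and Tbx6 −1.05 against 0.33. The downstream Tbx6 probe gave a bound of −3.48 against −0.22. The E8.5 values of both Tbx6 probes lie within 3 times the spot error (0.43), so they show no direction at E8.5. Msgn1 gave −1.02 against 1.07, and Cdx1 −0.21 against 1.02. The −0.21 of Cdx1 lies within 3 times the spot error (0.43), so it shows no direction at E9.5.

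For Msgn1 the difference of gated from other GFP+ cells was 0.19 at E11.5 against −0.61 at E9.5. The value of E11.5 lies within 3 times the spot error and was −0.02 with no scaling, so it shows no direction there. The difference between the stages was not tested.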

How the results depend on the processing

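No difference past 2-fold changed sign under any alternative that was run. At E8.5 the count higher in GFP+ cells was 4, and it was 2 under quantile normalisation, 2 under normexp and 2 with the percentile over probes detected on all arrays, Cdx1 and Msgn1 having stood at 1.02 and 1.07. Under normexp, whose offset of 50 exceeds many of the dim signals, gated against other GFP+ cells of E11.5 gave 0 higher and 0 lower in place of 1 and 2, E11.5 against E9.5 gated cells 0 lower in place of 4, and E11.5 against E9.5 other GFP+ cells 3 lower in place of 6. Tbx6 left the count under normexp in 4 comparisons of E9.5 GFP+ populations, with E8.5 GFP+ or E9.5 GFP- cells. With no filter and no bound the E11.5 gate gave 2 higher in place of 1. With no scaling, E9.5 against E8.5 GFP- cells gave 1 lower in place of 4. Of 73 single differences, 53 moved by more than the spot error under normexp, 36 with no scaling, 22 under quantile normalisation, 13 with the other percentile, 9 by the mean of probes and 8 with no filter. Sign changes under these alternatives were 1 with the other percentile, 1 under normexp, 3 with no scaling and 3 by the mean of probes, at differences of at most 0.48. With the downstream Tbx6 probe in place of the upstream one, all 8 measured differences moved and 4 changed sign, E11.5 minus E9.5 other GFP+ cells to −2.60 from 0.48, E9.5 gated minus other GFP+ cells to −2.17 from 0.09, E9.5 minus E8.5 GFP- cells to −1.50 from 0.10, and E8.5 GFP+ minus GFP- cells to −0.22 from 0.33. Another scaling moved the median of all genes by at most 0.34 (no scaling, E9.5 minus E8.5 GFP- cells) and by 0.32 under quantile normalisation (E11.5 minus E9.5 other GFP+ cells). No paired analysis was possible because the populations compared share fewer than 2 replicate numbers. A fit pooled over stages was not run. Signal over background limits the dim genes, which are given as bounds where one side was not well above it.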
